A study of Homo sapiens with 9 samples.

Results

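Caki-1 cells, an established human line of clear cell renal carcinoma, were compared between 2 groups with the genotype "TAF1D knockdown", made with short hairpin RNAs and titled SH1 and SH3. The libraries were chosen by their names alone: SH1 1, 2 and 3 against SH3 1, 2 and 3, which is 6 of the 9 libraries deposited. The remaining 3 libraries are controls with the genotype WT and were used only to show which knockdown group stood away from control. Total RNA was sequenced, and no drug or time course is named for any group. What the names SH1 and SH3 stand for, the hairpin sequences, whether the controls carry a hairpin and the number of clones behind each line are not given in the sources used here; both are read here as hairpins against TAF1D. The 3 libraries of a group are not said to come from separate cultures, so p-values measure the spread between these samples, which may be technical.

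TAF1D encodes a subunit of SL1, the complex of TATA-binding protein and its associated factors that places RNA polymerase I on the promoters of ribosomal RNA genes. A short hairpin RNA is cut by Dicer, and one of its strands guides an Argonaute complex to matching messenger RNA, which is then degraded. Hairpins against the same message share that target but not their sequence, and a hairpin can also lower messages that match the first bases of its guide strand. SH1 and SH3 carry the same genotype label, and the genes below are those on which they nevertheless differed.

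The deposited table holds 20909 transcripts of 6819 genes, and values were summed per gene before testing. It is a selected table: the estimated counts of control 1 and SH1 1 differ at least 2-fold for 100% of its transcripts, against 53.91% to 62.16% in the 9 pairs of an SH1 with an SH3 library. Every value of SH1 1 is thus conditioned on being far from control 1, and a gene that SH3 alone moved is present only where SH1 1 also lay far from control 1. P-values of SH1 against control draw on both libraries that selected the transcripts. They describe the listed values and are not independent evidence of a change. Pairs of libraries within a group gave 2-fold shares of 51.6% to 62.1% in control, 51.6% to 60.1% in SH1 and 51.5% to 52.6% in SH3. Shares of about this size thus occur between libraries with the same hairpin. A summed level covers the listed transcripts of a gene, not all of them. TAF1D was not analysed here, so how far either hairpin lowered its target is not known here. The listed estimated counts add up to between 1358215 and 1596467 per library, and between 5333 and 5698 genes reach a count of 10.

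Of 6398 genes tested, 87 differed between SH3 and SH1 (1.36% of the genes tested, edgeR quasi-likelihood test, Benjamini-Hochberg adjusted p below 0.05). Of these, 50 were higher in SH3 (0.781%) and 37 were lower (0.578%). The leading genes higher in SH3 were ASNS, which makes asparagine, IGFBP3, which binds insulin-like growth factors outside the cell, and SLC16A1, a carrier of lactate and pyruvate. The leading genes lower in SH3 were GOLGA7B, a partner of a protein palmitoyltransferase, C3, the central protein of complement, and INAVA, a regulator of innate immune signalling. The size of the difference on the log2 scale ran from 0.764 to 10.7 with a median of 1.62. All 87 genes had SH1 and SH3 libraries that did not overlap, which held for 1409 of all genes tested (22%). Errors after ± are standard errors of the log2 fold change, with n = 3 libraries per group. An unadjusted p below 0.05 was reached by 690 genes (10.8%), 356 higher and 334 lower in SH3. These are RNA levels of whole cultures, in which fewer cells expressing a gene and less RNA per cell cannot be told apart.

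The number of genes called depended on each library. Leaving out control 1, 2 or 3 gave 92, 63 and 50 genes. The corresponding numbers were 47, 32 and 50 for SH1 1, 2 and 3, and 37, 43 and 37 for SH3 1, 2 and 3. Of the 87 genes, 29 passed the threshold in all 9 of these fits, and all 29 are among the 40 genes with the smallest p (20 in each direction). For most other called genes described below, the highest adjusted p with 1 library left out is given.

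**Figure D1:**
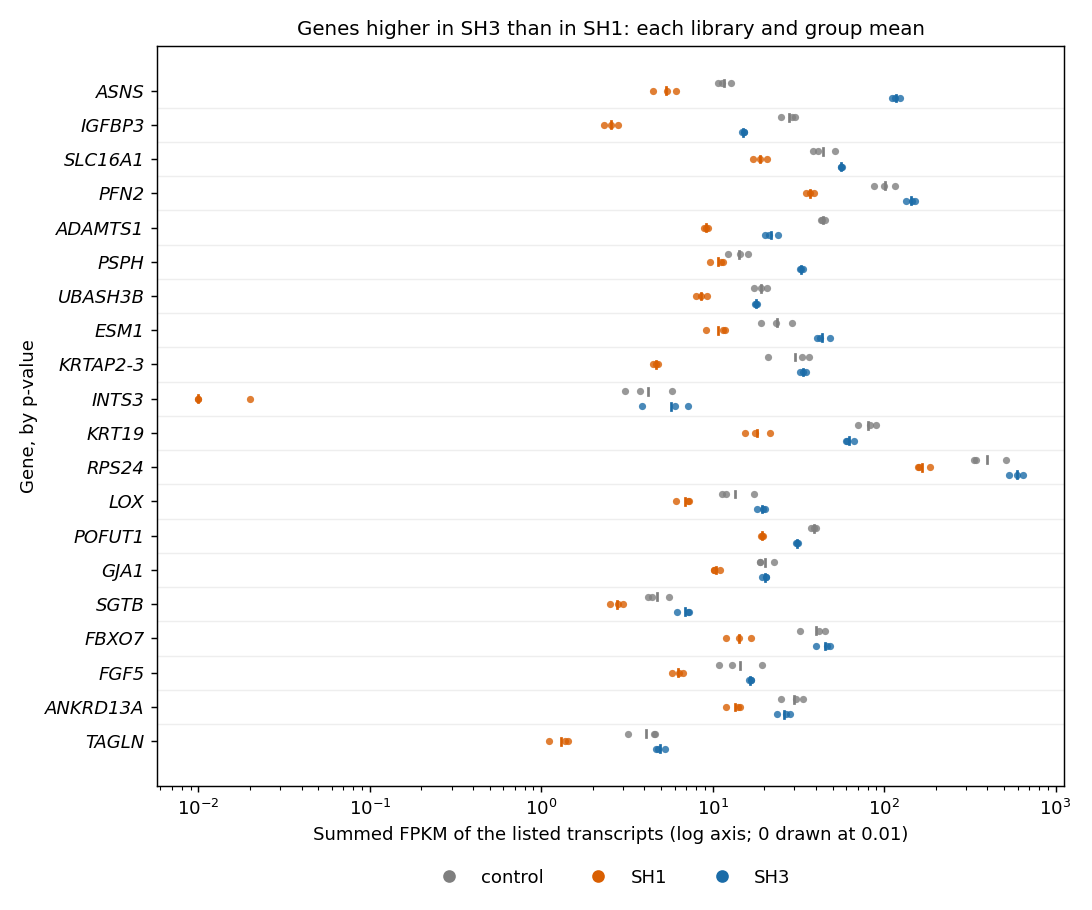
Summed FPKM (fragment counts scaled for transcript length and library size, log axis) of the listed transcripts of the 20 genes higher in SH3 with the smallest p, for each of the 9 libraries (points) and as group means (ticks). The SH1 points lie left of the SH3 points for every gene; for ASNS the SH3 libraries sit at 111 to 124 FPKM and the SH1 libraries at 4.51 to 6.14, with control between them.

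ASNS had the smallest p-value of all genes tested, and genes of amino acid supply are described first. ASNS, asparagine synthetase, transfers nitrogen from glutamine to aspartate. Its summed level was 12.7, 11.4 and 10.8 FPKM in control, 5.41, 6.14 and 4.51 in SH1 and 116, 124 and 111 in SH3. The 3 groups did not overlap, and control lay between the knockdown groups. SH3 was higher than SH1 by 4.42 ± 0.15 on the log2 scale (adjusted p = 1.16e-05). Both hairpins moved away from control, in opposite directions: SH1 fell (-1.26 ± 0.13, adjusted p = 0.00282) and SH3 rose (3.16 ± 0.14, adjusted p = 0.000105). 5 ASNS transcripts are listed, and the most abundant, NM_001178077, was at 47.3, 60.7 and 43.5 FPKM in SH3 and at 0.95, 3.27 and 0.15 in SH1. All 5 had a higher mean in SH3 than in SH1.

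PSPH, the phosphatase of the last step of serine synthesis, was at 16.1, 12.3 and 14.4 FPKM in control, 11.5, 9.71 and 11.2 in SH1 and 32.3, 33.5 and 32.9 in SH3. Control overlapped neither group and lay nearer to SH1. SH3 was above SH1 by 1.66 ± 0.14 on the log2 scale (adjusted p = 0.00118), and against control SH3 rose (1.14 ± 0.13, adjusted p = 0.0151) while SH1 did not pass the threshold (-0.52 ± 0.13, adjusted p = 0.12). PSPH is spread over 15 listed transcripts, none of which carries most of the sum. IARS1, which loads isoleucine onto its transfer RNA, was at 31.9, 37.7 and 30.5 FPKM in control, 16.4, 19.8 and 13.4 in SH1 and 43.3, 29.97 and 43.1 in SH3. Here SH1 was the group away from control (-1.18 ± 0.22, adjusted p = 0.0391), and SH3 overlapped it. The difference was 1.31 ± 0.22 on the log2 scale (adjusted p = 0.0337), and the adjusted p reached 0.135 with 1 library left out.

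Both ASNS and IARS1 carry the letters TGATGNAA, the core of the element bound by ATF4 with a C/EBP partner, in the 250 bases before their start. The promoters are shown because ASNS leads the differences and only these, of the 59 called genes with a promoter entry, held those letters there. PSPH has no entry and was not searched. The match is in capitals and the sequences are from RefSeq (GRCh38.p14, first listed start of each gene). ASNS lies at chr7:97872409-97872658 on the minus strand, with the first letter of the match 68 bases before the start. IARS1 lies at chr9:92293698-92293947 on the minus strand, with the match on the opposite strand, its first printed letter 13 bases before the start.
ASNS: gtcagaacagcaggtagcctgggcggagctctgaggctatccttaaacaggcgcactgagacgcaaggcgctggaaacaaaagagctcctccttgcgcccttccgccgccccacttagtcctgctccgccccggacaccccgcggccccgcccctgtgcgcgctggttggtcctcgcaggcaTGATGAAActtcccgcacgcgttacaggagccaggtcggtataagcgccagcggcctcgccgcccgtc
IARS1: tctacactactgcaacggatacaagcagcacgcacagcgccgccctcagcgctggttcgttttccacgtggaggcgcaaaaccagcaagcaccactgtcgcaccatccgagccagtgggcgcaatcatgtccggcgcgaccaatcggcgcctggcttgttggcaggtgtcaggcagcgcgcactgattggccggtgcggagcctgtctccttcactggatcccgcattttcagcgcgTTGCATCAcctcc
The letters, searched on both strands, occur in 2 of the 59 called genes with a promoter entry (3.39%), in 82 of 5345 genes tested (1.534%) and in 870 of all 27305 genes in the promoter table (3.186%). On the list of ATF4 targets they occur in 2 of 18, ASNS and ATF3. A match describes the letters in this window and not a site in use.

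ATF4 is a transcription factor made when amino acids run short or the endoplasmic reticulum is stressed, and its targets make, import and load amino acids. Of 41 genes on the list, 21 were tested, and 2 were called (ASNS and PSPH, both higher in SH3). The difference was positive for 19 of the 21, with a median log2 fold change of 1.89, beside 0.0048 over all genes tested. At an unadjusted p below 0.05, 7 were higher and 0 lower, beside 356 higher and 334 lower of all 6398 genes tested. Against control the median of the list was -0.757 for SH1 and 0.775 for SH3, which share the control libraries. Without SH1 1 the median was 1.78 and the sign was positive for 19 again. This list was written with earlier results of these data known, so its direction is a description.

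Most of the other members had low listed levels. DDIT3, the stress-induced factor CHOP, was at 7.22, 5.92 and 11.1 FPKM in control, 5.78, 6.21 and 3.99 in SH1 and 22.9, 22.4 and 11.3 in SH3. Its libraries did not overlap between SH1 and SH3, with a difference of 1.9 ± 0.40 on the log2 scale (adjusted p = 0.0735). SLC6A9, a glycine transporter, was at 1.09, 1.68 and 0.61 FPKM in control, 1.12, 0.67 and 1.71 in SH1 and 4.3, 4.6 and 6.89 in SH3 (log2 fold change 2.25 ± 0.53, adjusted p = 0.119). CEBPG, a partner of ATF4, was at 0.46, 0.56 and 0.32 FPKM in control, 0.42, 0.49 and 0.66 in SH1 and 1.4, 2.29 and 1.85 in SH3 (log2 fold change 1.89 ± 0.48, adjusted p = 0.148). None of these passed the edgeR threshold, whereas the DESeq2 Wald test called all 3. CBS, the first enzyme from homocysteine to cysteine, and VLDLR, a lipoprotein receptor, had negative values, -0.77 ± 0.78 on the log2 scale (adjusted p = 0.956) and -0.33 ± 0.79 on the log2 scale (adjusted p = 1). The stress branch of the endoplasmic reticulum outside ATF4 had 0 of 8 tested genes called by edgeR, 0 at an unadjusted p below 0.05 and 0 called by DESeq2, with a median of -0.1. Over all genes tested edgeR called 1.36%, so 0 called in a list of 8 does not set it apart.

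**Figure D2:**
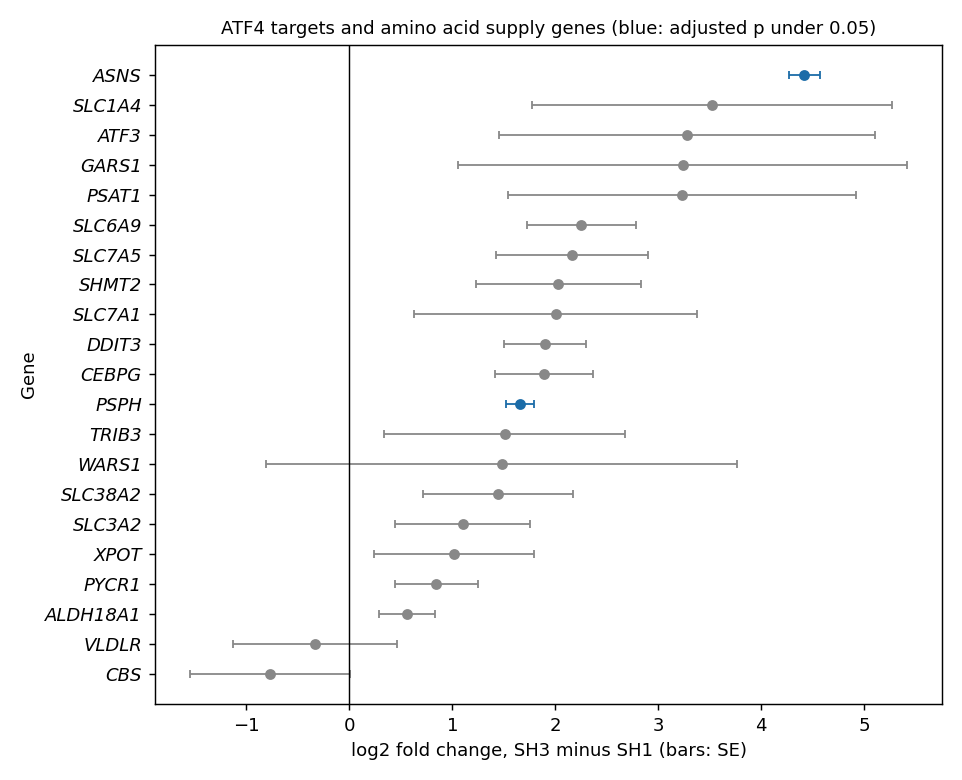
Log2 fold change of SH3 minus SH1 with its standard error for the 21 tested genes of the ATF4 list, ASNS and PSPH in blue. Points lie right of 0 for 19 genes, but the error bars of the low-level genes such as GARS1 and WARS1 are wide.

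The called members of the growth factor, protease and matrix lists were higher in SH3. IGFBP3, a carrier of insulin-like growth factors, was at 30.1, 25 and 28.9 FPKM in control, 2.55, 2.33 and 2.81 in SH1 and 14.8, 15.2 and 15.3 in SH3. The 3 groups were separate, control highest and SH1 lowest. Both hairpins fell below control, SH1 (-3.6 ± 0.15, adjusted p = 5.39e-05) further than SH3 (-0.97 ± 0.13, adjusted p = 0.0323), and they differed by 2.64 ± 0.14 on the log2 scale (adjusted p = 0.000185). ADAMTS1, a secreted protease that cuts matrix proteoglycans, showed the same order, at 45.1, 43.3 and 43 FPKM in control, 9.43, 9.13 and 8.94 in SH1 and 23.9, 20.1 and 21.3 in SH3. SH1 fell by 2.42 ± 0.11 (adjusted p = 6.28e-05) and SH3 by 1.09 ± 0.11 (adjusted p = 0.00735) on the log2 scale, and SH3 exceeded SH1 by 1.33 ± 0.11 on the log2 scale (adjusted p = 0.00115).

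ESM1, a secreted proteoglycan, was at 29, 23.3 and 19.2 FPKM in control, 11.5, 11.8 and 9.1 in SH1 and 48.3, 42.1 and 40.4 in SH3. SH1 fell below control (-1.3 ± 0.18, adjusted p = 0.012) and SH3 lay above every control library without passing the threshold (0.80 ± 0.18, adjusted p = 0.178), a difference of 2.1 ± 0.19 on the log2 scale (adjusted p = 0.00196). LOX, which cross-links collagen and elastin, was at 17.4, 11.4 and 12 FPKM in control, 7.22, 7.24 and 6.09 in SH1 and 20.1, 18.1 and 19.8 in SH3. It followed ESM1 in order, with 1.58 ± 0.17 on the log2 scale (adjusted p = 0.00344) between the knockdown groups. FGF5, a fibroblast growth factor, was at 19.3, 10.9 and 12.9 FPKM in control, 6.38, 6.74 and 5.77 in SH1 and 16.8, 16.7 and 16.4 in SH3. SH3 overlapped control, SH1 did not, and the difference of 1.48 ± 0.18 on the log2 scale (adjusted p = 0.00853) reached an adjusted p of 0.0544 with 1 library left out. EDN1, which encodes endothelin, was at 5.72, 3.66 and 5.63 FPKM in control, 0.99, 0.52 and 0.7 in SH1 and 4.23, 4.96 and 3.34 in SH3. SH1 was below every other library, with 2.59 ± 0.37 on the log2 scale (adjusted p = 0.0164) between SH3 and SH1, and an adjusted p of up to 0.0784 with 1 library left out.

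On the lists, 2 of 16 tested growth factors and receptors were called, both higher in SH3 (ESM1 and FGF5). At an unadjusted p below 0.05, 7 of these 16 were higher against 0 lower, beside 356 higher and 334 lower of all 6398 genes tested. Insulin-like growth factor signalling had 1 of 5 called, IGFBP3. Secreted proteases and inhibitors had 1 of 15 (ADAMTS1), extracellular matrix had 1 of 17 and hypoxia-inducible genes 1 of 13, LOX in each case. In the matrix list 5 members were higher and 4 lower at an unadjusted p below 0.05, among them COL6A2, a collagen chain, at 66, 71.9 and 91.3 FPKM in SH1 and 41, 44.4 and 41.4 in SH3 (log2 fold change -0.78 ± 0.18, adjusted p = 0.121). The list median was 0.21.

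Cytoskeletal and junction genes were higher in SH3 where they were called. PFN2, a profilin that binds actin monomers, was at 86.8, 116 and 100.1 FPKM in control, 37.1, 35.2 and 39 in SH1 and 145, 152 and 134 in SH3. SH1 fell against control (-1.62 ± 0.16, adjusted p = 0.00225), SH3 did not pass (0.42 ± 0.15, adjusted p = 0.51), and they differed by 2.03 ± 0.16 on the log2 scale (adjusted p = 0.00115). TAGLN, an actin-binding protein of smooth muscle, was at 3.19, 4.59 and 4.52 FPKM in control, 1.11, 1.37 and 1.44 in SH1 and 4.67, 5.3 and 4.8 in SH3. SH1 lay below control. In FPKM SH3 lay just above control, but in the scaled counts that were tested SH3 overlapped control (0.17 ± 0.26 on the log2 scale). The difference between SH3 and SH1 was 1.99 ± 0.27 on the log2 scale (adjusted p = 0.0125), with an adjusted p of up to 0.0705 with 1 library left out. Of 22 tested actin genes, 2 were called, and the list median was 0.53.

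KRT19, a keratin of simple epithelia, was at 70.1, 89.5 and 82.5 FPKM in control, 15.4, 17.5 and 21.6 in SH1 and 60.3, 66.6 and 60.5 in SH3. SH1 fell (-2.32 ± 0.20, adjusted p = 0.00135) and SH3 lay between SH1 and control, with no overlap with either and a difference from SH1 of 1.86 ± 0.19 on the log2 scale (adjusted p = 0.00344). GJA1, the gap junction protein connexin 43, was at 22.9, 18.8 and 19 FPKM in control, 11, 10.2 and 10.2 in SH1 and 20.6, 19.4 and 20.6 in SH3, where SH3 overlapped control (log2 fold change 1.03 ± 0.12, adjusted p = 0.00649 between SH3 and SH1). KRTAP2-3, a keratin-associated protein of hair, was at 21, 36.4 and 33.1 FPKM in control, 4.82, 4.64 and 4.5 in SH1 and 33.8, 32.3 and 35.2 in SH3 (log2 fold change 2.94 ± 0.27, adjusted p = 0.00223). It has near-identical copies, and its transcript is listed at 2 places with the same values, so its level is doubled and its assignment uncertain. On the list of keratins and epithelial junctions, which does not hold GJA1 or KRTAP2-3, KRT19 was the 1 called of 10 tested, with a median of -0.06. At an unadjusted p below 0.05, 2 members were higher and 2 lower.

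Other genes higher in SH3 act in metabolism, signalling and the ribosome. SLC16A1, the lactate and pyruvate carrier MCT1, was at 51.5, 38.3 and 41.4 FPKM in control, 20.8, 18.8 and 17.2 in SH1 and 56.8, 55.9 and 56.1 in SH3; it is listed at 2 places with equal values, which doubles the level and not the ratio. SH1 fell (-1.36 ± 0.11, adjusted p = 0.00123), SH3 lay above every control library without passing the threshold (0.29 ± 0.11, adjusted p = 0.532), and the difference was 1.65 ± 0.11 on the log2 scale (adjusted p = 0.00081). PKM, pyruvate kinase, went the other way, at 51.5, 64.3 and 52.3 FPKM in control, 119, 116 and 149 in SH1 and 59.3, 63.3 and 58.7 in SH3 (log2 fold change -1.0 ± 0.16, adjusted p = 0.0312, reaching 0.142 without 1 library). These were the 2 called of 19 tested genes of glycolysis and monocarboxylate transport, whose median was 0.2.

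UBASH3B, a phosphatase that restrains tyrosine kinase signalling, was at 20.7, 17.5 and 19.3 FPKM in control, 9.23, 8.56 and 8.01 in SH1 and 18, 17.7 and 18 in SH3 (log2 fold change 1.14 ± 0.10, adjusted p = 0.0018). POFUT1, which adds fucose to Notch receptors, was at 40.05, 37.2 and 39.2 FPKM in control, 19.6, 19 and 19.4 in SH1 and 31.2, 30.5 and 31.5 in SH3 (log2 fold change 0.76 ± 0.09, adjusted p = 0.00564). SH3 lay within the control range for UBASH3B and, for POFUT1, between SH1 and control without overlap. FBXO7, a subunit of a ubiquitin ligase, was at 41.7, 45.1 and 32.5 FPKM in control, 11.9, 16.7 and 14.3 in SH1 and 46.3, 40.1 and 48.5 in SH3 (log2 fold change 1.69 ± 0.21, adjusted p = 0.00799). SGTB, a co-chaperone, was at 5.58, 4.22 and 4.45 FPKM in control, 2.8, 2.99 and 2.53 in SH1 and 7.28, 7.15 and 6.19 in SH3 (log2 fold change 1.4 ± 0.17, adjusted p = 0.00709). SH3 overlapped control for FBXO7 and lay above it for SGTB. With curated transcripts alone SGTB was not called (1.86, edgeR adjusted p = 0.463).

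RPS24, a protein of the small ribosomal subunit, was at 333, 346 and 517 FPKM in control, 157, 185 and 159.7 in SH1 and 596, 646 and 538 in SH3. SH1 fell against control (-1.41 ± 0.19, adjusted p = 0.0111), SH3 did not pass (0.49 ± 0.19, adjusted p = 0.537), and they differed by 1.91 ± 0.20 on the log2 scale (adjusted p = 0.00344). RPS24 has processed copies in the genome, so its counts are uncertain, and nearly all of the sum is the transcript NM_033022, at 155, 184 and 155 FPKM in SH1 and 590.4, 642 and 534 in SH3. Of 78 cytosolic ribosomal proteins 9 were tested and RPS24 alone was called; the median was 0.14. ANKRD13A, which binds ubiquitin on endocytosed receptors, was at 33.5, 25 and 30.7 FPKM in control, 14.5, 14 and 11.9 in SH1 and 26.7, 23.7 and 28.2 in SH3 (log2 fold change 1.03 ± 0.14, adjusted p = 0.0121, reaching 0.0688 without 1 library). Its difference sits in predicted transcripts: with curated transcripts alone the value was -1.76, with an adjusted p of 1.

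**Figure D3:**
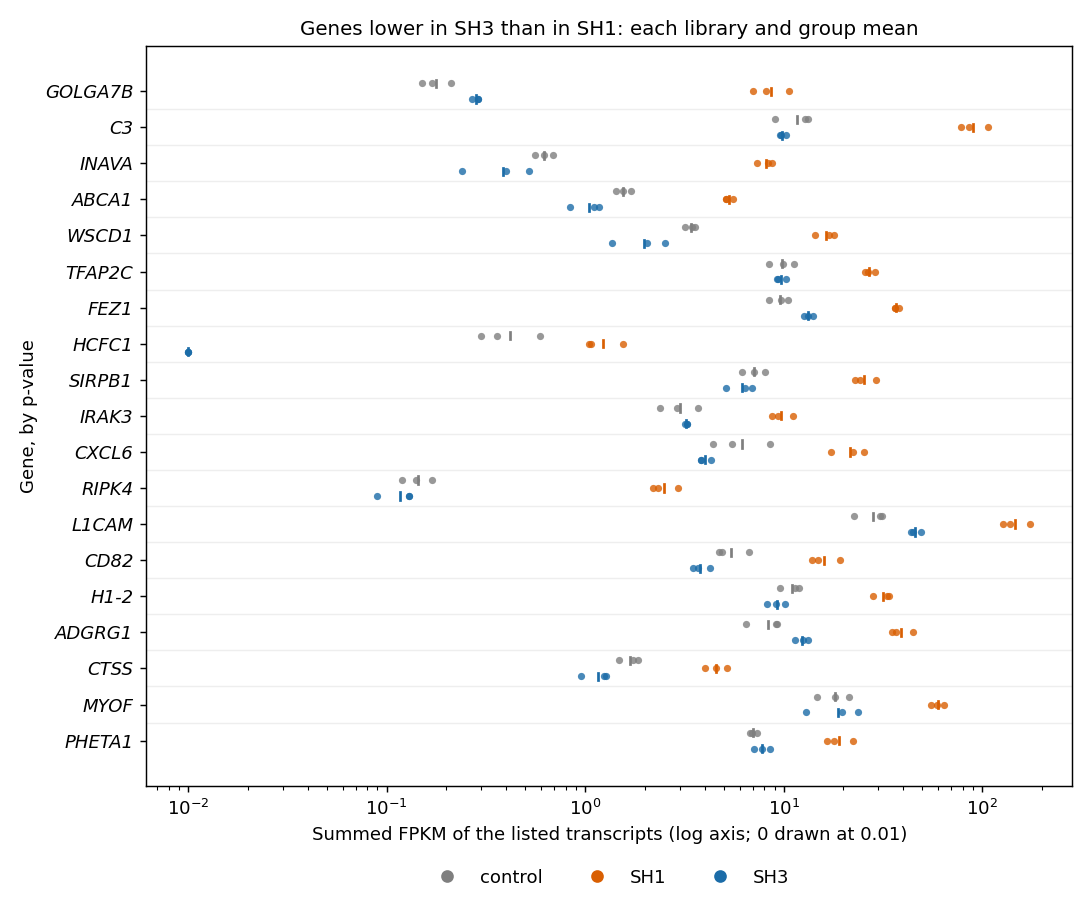
Summed FPKM (log axis) of the listed transcripts of 19 of the 20 genes lower in SH3 with the smallest p, for each of the 9 libraries (points) and as group means (ticks); a level of 0 is drawn at 0.01. The SH1 points lie right of all SH3 points; for C3 they sit at 78.1 to 107 FPKM, while the SH3 libraries, at 9.55 to 10.3, lie among the controls.

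The called complement and inflammatory genes were lower in SH3. C3, which is cleaved to tag targets of complement, was at 9.1, 12.8 and 13.3 FPKM in control, 78.1, 85.8 and 107 in SH1 and 9.55, 9.67 and 10.3 in SH3. SH1 rose over control (2.78 ± 0.21, adjusted p = 0.000876) while SH3 overlapped control, and SH3 was lower than SH1 by 3.12 ± 0.22 on the log2 scale (adjusted p = 0.00081). C1S, a protease of the first complement complex, was at 2.24, 3.09 and 2.77 FPKM in control, 4.24, 5.01 and 4.43 in SH1 and 1.33, 1.48 and 1.53 in SH3. It was lower in SH3 by 1.64 ± 0.29 on the log2 scale (adjusted p = 0.0455), with an adjusted p of up to 0.175 with 1 library left out, and neither group passed against control. With curated transcripts alone C1S was not called (-1.67, edgeR adjusted p = 0.0733). These were the 2 called of 7 tested complement genes, with a list median of -0.85. At an unadjusted p below 0.05, 2 members were higher and 3 lower. The DESeq2 Wald test called 1 higher and 3 lower, and its median over 8 tested members was -0.094.

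CXCL6, a neutrophil chemokine with a close copy in CXCL5, was at 8.55, 4.41 and 5.52 FPKM in control, 25.3, 22.3 and 17.2 in SH1 and 4.32, 3.82 and 3.85 in SH3. SH1 rose (1.66 ± 0.27, adjusted p = 0.0218) and SH3 lay below every control library without passing (-0.69 ± 0.27, adjusted p = 0.533), a difference of -2.35 ± 0.28 on the log2 scale (adjusted p = 0.00663). IRAK3, an inhibitor of Toll-like receptor signalling, was at 3.69, 2.38 and 2.92 FPKM in control, 11.1, 9.42 and 8.74 in SH1 and 3.27, 3.25 and 3.19 in SH3 (log2 fold change -1.51 ± 0.16, adjusted p = 0.00419). INAVA, named above, was at 0.69, 0.62 and 0.56 FPKM in control, 8.32, 7.31 and 8.77 in SH1 and 0.52, 0.4 and 0.24 in SH3 (log2 fold change -4.27 ± 0.33, adjusted p = 0.00115). SH3 overlapped control for IRAK3 and lay below it for INAVA. SIRPB1, a receptor of myeloid cells with near-identical relatives, was at 6.19, 7.1 and 8.09 FPKM in control, 24.2, 22.9 and 29.2 in SH1 and 6.96, 5.14 and 6.37 in SH3 (log2 fold change -1.85 ± 0.20, adjusted p = 0.00419), and CTSS, the protease cathepsin S, was at 1.85, 1.74 and 1.48 FPKM in control, 5.18, 4.55 and 4.04 in SH1 and 1.25, 0.95 and 1.28 in SH3 (log2 fold change -1.9 ± 0.26, adjusted p = 0.0142, reaching 0.0784 without 1 library). With curated transcripts alone SIRPB1 was not called (-2.57, edgeR adjusted p = 0.0715).

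CXCL6 was the 1 called gene of 18 tested NF-kB and inflammatory genes, whose median was -0.23. CSF3 and EGR1, which the naming rule took in any case, were not called between SH3 and SH1. CSF3, the granulocyte growth factor, was at 84.8, 74.1 and 74.1 FPKM in control, 237, 243 and 268 in SH1 and 267, 287 and 253 in SH3, with 0.19 ± 0.10 on the log2 scale (adjusted p = 0.568) between SH3 and SH1. The 95% interval of that difference was -0.035 to 0.41 on the log2 scale, while both groups rose over control (1.52 ± 0.10, adjusted p = 0.000413 for SH1 and 1.71 ± 0.10, adjusted p = 0.000288 for SH3). EGR1, an immediate early transcription factor, was at 22.1, 20.4 and 27.8 FPKM in control, 92.8, 81.1 and 128 in SH1 and 108, 94 and 128 in SH3 (log2 fold change 0.21 ± 0.21, adjusted p = 0.95, 95% interval -0.27 to 0.70). CSF2, a related cytokine, was at 17.2, 24.8 and 27.8 FPKM in SH1 and 9.32, 7.22 and 7.76 in SH3 without passing the threshold (log2 fold change -1.45 ± 0.33, adjusted p = 0.107).

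Several genes of the cell surface and of membranes were lower in SH3. L1CAM, an adhesion molecule of neurons and carcinomas, was at 22.7, 31.2 and 30.4 FPKM in control, 127, 138 and 175 in SH1 and 43.9, 44.7 and 49.3 in SH3. SH1 rose against control (2.22 ± 0.20, adjusted p = 0.00182), SH3 lay between control and SH1 without passing (0.62 ± 0.19, adjusted p = 0.377), and the difference was -1.6 ± 0.19 on the log2 scale (adjusted p = 0.00799), with an adjusted p of up to 0.0572 with 1 library left out. ADGRG1, an adhesion receptor, was in the same order, at 6.46, 9.3 and 9.17 FPKM in control, 36.7, 35.2 and 44.8 in SH1 and 13.3, 12.5 and 11.5 in SH3 (log2 fold change -1.56 ± 0.21, adjusted p = 0.0125, reaching 0.0708 without 1 library). With curated transcripts alone ADGRG1 was not called (-1.74, edgeR adjusted p = 0.463). On the list of adhesion receptors and integrins, which does not hold ADGRG1, L1CAM was the 1 called of 13 tested, with a median of -0.37. At an unadjusted p below 0.05, 2 members were higher and 3 lower. The DESeq2 Wald test called 2 higher (ITGA6 and NRP2) and 1 lower (L1CAM).

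MYOF, a protein of membrane repair, was at 18.1, 14.8 and 21.3 FPKM in control, 55.3, 59.6 and 64.6 in SH1 and 12.9, 23.7 and 19.8 in SH3. SH3 overlapped control, SH1 rose (1.54 ± 0.23, adjusted p = 0.0135), and the difference was -1.59 ± 0.23 on the log2 scale (adjusted p = 0.0165), reaching an adjusted p of 0.0786 with 1 library left out. Its transcripts did not move alike: the curated NM_133337 had a mean of 47.9 FPKM in SH1 and 3.22 in SH3, and the predicted XM_017016068 of 3.22 in SH1 and 8.64 in SH3. With curated transcripts alone the difference was -3.84 on the log2 scale (edgeR adjusted p = 0.00228). CD82, a tetraspanin, was at 4.7, 6.66 and 4.89 FPKM in control, 13.9, 14.9 and 19.3 in SH1 and 3.69, 4.26 and 3.49 in SH3 (log2 fold change -1.99 ± 0.26, adjusted p = 0.0121, reaching 0.07 without 1 library). ABCA1, which exports cholesterol, was at 1.7, 1.43 and 1.55 FPKM in control, 5.59, 5.14 and 5.15 in SH1 and 1.18, 0.84 and 1.11 in SH3 (log2 fold change -2.26 ± 0.18, adjusted p = 0.00115). For CD82 and ABCA1 SH1 lay above and SH3 below the control libraries.

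GOLGA7B, a partner of the palmitoyltransferase ZDHHC5, was nearly silent outside SH1, at 0.17, 0.15 and 0.21 FPKM in control, 6.99, 8.18 and 10.7 in SH1 and 0.29, 0.29 and 0.27 in SH3. SH1 rose (5.43 ± 0.28, adjusted p = 9.62e-05) and the difference from SH3 was -4.84 ± 0.27 on the log2 scale (adjusted p = 0.000185). FEZ1, a kinesin adaptor, was at 10.5, 8.43 and 9.74 FPKM in control, 36.3, 36.4 and 38 in SH1 and 13.3, 14.1 and 12.7 in SH3 (log2 fold change -1.39 ± 0.14, adjusted p = 0.00269), with SH3 a little above control. Most of this difference sits in the predicted transcript XM_005271734, with a mean of 24.1 FPKM in SH1 and 5.78 in SH3. With the curated transcript NM_022549 alone, at 12.5 in SH1 and 7.57 in SH3, the value was -0.67 and FEZ1 was not called (edgeR adjusted p = 0.405). WSCD1 was at 3.57, 3.2 and 3.45 FPKM in control, 14.5, 17.9 and 16.9 in SH1 and 2.05, 1.37 and 2.53 in SH3 (log2 fold change -3.02 ± 0.27, adjusted p = 0.00196), and SH3 lay below every control library. PHETA1, a protein of endosome recycling, was at 6.76, 6.97 and 7.37 FPKM in control, 16.6, 18 and 22.4 in SH1 and 7.11, 8.52 and 7.79 in SH3 (log2 fold change -1.2 ± 0.18, adjusted p = 0.0203, reaching 0.114 without 1 library).

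TFAP2C, an AP-2 transcription factor, was at 11.3, 8.44 and 9.91 FPKM in control, 28.9, 25.7 and 26.5 in SH1 and 9.3, 10.3 and 9.41 in SH3 (log2 fold change -1.4 ± 0.13, adjusted p = 0.00252), SH3 overlapping control. RIPK4, a kinase of epithelial differentiation, was at 0.12, 0.17 and 0.14 FPKM in control, 2.2, 2.33 and 2.94 in SH1 and 0.13, 0.09 and 0.13 in SH3 (log2 fold change -4.28 ± 0.52, adjusted p = 0.00769, reaching 0.0542 without 1 library). H1-2, a linker histone, was at 11.4, 9.63 and 11.9 FPKM in control, 28.1, 33.3 and 34 in SH1 and 9.21, 10.2 and 8.26 in SH3 (log2 fold change -1.71 ± 0.23, adjusted p = 0.0124, reaching 0.0745 without 1 library). H1-2 shares sequence with other histone genes, and its assignment is uncertain.

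For 2 called genes the listed transcripts had 0 counts in all SH1 libraries, and for 5 in all SH3 libraries. HCFC1, a chromatin-bound cofactor of transcription, had 679 estimated counts over the SH1 libraries and 0 over SH3, which is at least 216-fold lower in SH3 at the limit of 3 counts over the group. Its level was 0.36, 0.3 and 0.59 FPKM in control, 1.56, 1.05 and 1.07 in SH1 and 0, 0 and 0 in SH3, in 2 predicted transcripts of the 17 known to RefSeq, so this describes those transcripts and not the gene. GART, an enzyme of purine synthesis, was at least 63.9-fold lower in SH3, HR at least 59.8-fold, GIPC3 at least 91.5-fold and KCND1, a potassium channel, at least 51.5-fold. The zinc finger genes ZNF782 and ZNF224 had 0 counts in SH1 and gave lower bounds of 49.6-fold and 93.3-fold for the excess in SH3. INTS3, a subunit of Integrator, had 2 counts in SH1 and 1649 in SH3, but its single transcript is listed at 2 places with equal values. Counted at 1 place it had 1 count in SH1 and 824 in SH3, an 864-fold ratio with a 95% counting interval of 155 to 34173. Except for HCFC1 and INTS3, each of these calls was lost in at least 8 of the 9 fits with 1 library left out, where the highest adjusted p was 0.102 for GART, 0.129 for HR, 0.132 for GIPC3, 0.136 for KCND1, 0.125 for ZNF782 and 0.119 for ZNF224. Limits and intervals cover counting error only. For GART, GIPC3 and KCND1, 0 curated RefSeq transcripts are listed. ZNF782 is listed with 1 of 19 known transcripts, and ZNF224 and INTS3 with 1 of 2. As for HCFC1, these values describe the listed transcripts and not the gene.

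Control levels show which hairpin stood away. In TMM-scaled counts (CPM), which can differ at the margins from the FPKM above, the control libraries of the 87 genes overlapped SH3 only for 39, SH1 only for 4, neither group while lying between them for 31, and neither while lying outside both for 13. Over all genes tested, whose libraries mostly overlap, those shares were 12.2%, 9.83%, 1.14% and 6.35%. By the test against control, in which 137 genes passed for SH1 (2.14%) and 26 for SH3 (0.406%), 58 of the 87 passed for SH1 only, 2 for SH3 only (PSPH and HCFC1), 3 for both (ASNS, IGFBP3 and ADAMTS1) and 24 for neither. The SH1 mean was the farther from control for 71 genes and the SH3 mean for 16. Since a transcript entered the table only by a distance between control 1 and SH1 1, these counts do not compare the strength of the hairpins. Without control 1 and SH1 1, control overlapped SH3 only for 27 of the 87, SH1 only for 4, lay between for 40 and outside both for 16.

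Pathways tied to the target or named by the study were tested in the same edgeR fit. Over all genes tested, 1.36% were called and 10.8% had an unadjusted p below 0.05. In lists this short, 0 called is thus near the share of all genes and does not show that the groups were alike. Of SL1 and RNA polymerase I genes, 0 of 9 tested were called, with 2 higher at an unadjusted p below 0.05. The DESeq2 Wald test called 2, TAF1A and POLR1B. TAF1A, an SL1 subunit, was at 4, 1.66 and 3.05 FPKM in control, 0.74, 0.59 and 1.44 in SH1 and 2.29, 4.15 and 3.01 in SH3 (log2 fold change 1.84 ± 0.57, adjusted p = 0.248). TAF1B, another subunit, was at 0.36, 0.69 and 0.48 FPKM in control, 1.01, 0.38 and 0.22 in SH1 and 0, 0.91 and 0.28 in SH3 (log2 fold change -0.32 ± 1.5, adjusted p = 1), and TAF1C at 2.58, 2.02 and 3.82 FPKM in control, 1.83, 1.98 and 3.93 in SH1 and 1.65, 4.63 and 2.93 in SH3 (log2 fold change 0.33 ± 0.49, adjusted p = 1). The sign turned to 0.43 for TAF1B without SH1 1, to 0.26 for TAF1B without SH3 1 and to -0.096 for TAF1C without SH3 2. POLR1B, a core subunit of RNA polymerase I, was at 1.72, 1.2 and 1.28 FPKM in SH1 and 2.52, 4.82 and 3.4 in SH3 (log2 fold change 1.44 ± 0.31, adjusted p = 0.0808). Ribosome assembly had 0 of 11 called by edgeR, 0 at an unadjusted p below 0.05 and 0 called by DESeq2.

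PI3K, AKT and mTOR signalling, which the series title names, had 0 of 21 called with 1 at an unadjusted p below 0.05, TSC1, a restraint on mTOR, at 3.52, 1.89 and 4.54 FPKM in control, 2.1, 5.74 and 2.17 in SH1 and 0.63, 1.01 and 1.34 in SH3 (log2 fold change -1.68 ± 0.52, adjusted p = 0.251). Interferon response and double-stranded RNA sensors, which short hairpins can set off, had 0 of 17 called and 1 at an unadjusted p below 0.05. That gene was OAS2, a sensor of double-stranded RNA, at 1.01, 0.99 and 1.43 FPKM in control, 2.26, 2.72 and 2.41 in SH1 and 1.28, 1.01 and 0.93 in SH3 (log2 fold change -1.12 ± 0.47, adjusted p = 0.442). DESeq2 called TSC1 and OAS2 in these lists. Processing of microRNAs and hairpins had 0 of 11 called by edgeR and 1 higher at an unadjusted p below 0.05, which DESeq2 called. It was AGO4, an Argonaute protein, at 1.08, 1.7 and 1.29 FPKM in SH1 and 2.9, 2.12 and 2.42 in SH3 (log2 fold change 0.94 ± 0.27, adjusted p = 0.218). Lists of p53 targets (11 tested), NRF2 targets (8), cholesterol and fatty acid synthesis (18), DNA replication (18), mitosis (20) and immediate early genes (11) had 0 called by edgeR as well. At an unadjusted p below 0.05 these held 1 lower p53 target, 1 higher NRF2 target, 1 lower gene of mitosis, 1 higher immediate early gene, and 0 in the lipid synthesis and DNA replication lists. DESeq2 called HMOX1 in the NRF2 list, TOP2A in that of mitosis and MYC among the immediate early genes, and 0 in the other lists of these. As above, edgeR called 1.36% of all genes tested, and 10.8% had an unadjusted p below 0.05. Counts of 0 or 1 in short lists thus do not show that the groups were alike there. The DESeq2 Wald test called 384 of 6819 genes (5.63%), 199 higher (2.92%) and 185 lower (2.71%). With it 50 list genes passed, in place of 18 of the 350 list genes tested by edgeR. The lists were chosen with earlier results of these data known, so these counts are a description.

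In the NRF2 list HMOX1, heme oxygenase, came closest, at 21.2, 27.4 and 28.6 FPKM in control, 43, 51.4 and 53.3 in SH1 and 86, 91.8 and 87.5 in SH3 (log2 fold change 0.92 ± 0.18, adjusted p = 0.0583). Its groups were separate in the order control, SH1, SH3, and it passed the threshold without control 1 (adjusted p = 0.0266). MET, the receptor of hepatocyte growth factor, was at 1.12, 0.84 and 1.15 FPKM in control, 2.53, 1.66 and 1.4 in SH1 and 4.23, 4.25 and 5.95 in SH3 in the same order (log2 fold change 1.43 ± 0.28, adjusted p = 0.0592).

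**Figure D4:**
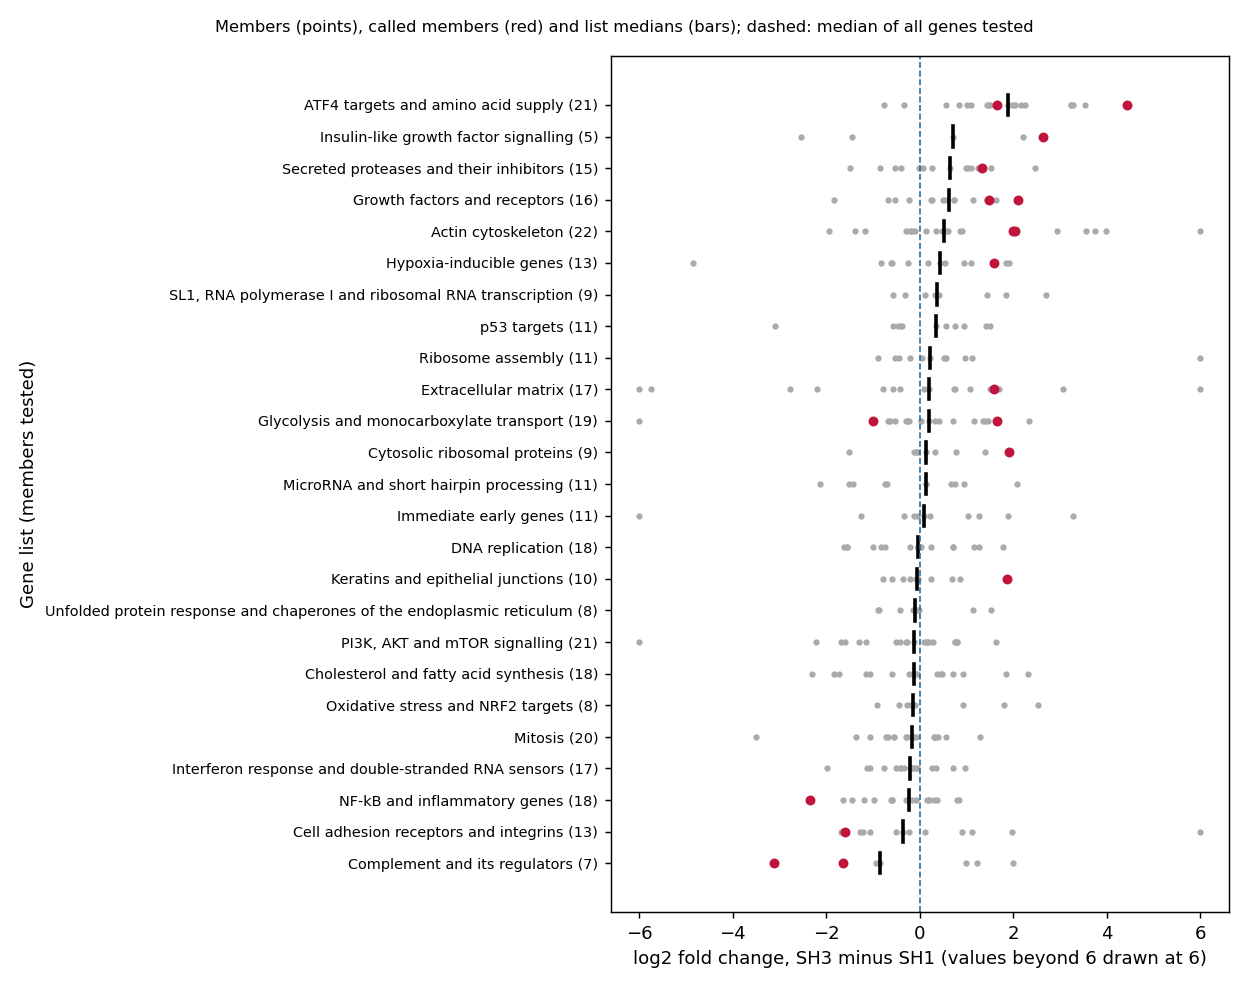
Log2 fold change of SH3 minus SH1 for every tested member of 25 gene lists (points), with called members in red and the list medians as bars; the dashed line is the median of all genes tested and values beyond 6 are drawn at 6. In this edgeR fit the ATF4 list has the highest median, 1.89, and the complement list the lowest, -0.85. With DESeq2 the complement median was -0.094.

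Without SH1 1, 47 of 6497 genes were called (0.723%), 25 higher in SH3 (0.385%) and 22 lower (0.339%). Of the 87 genes, 41 were still called, all 87 kept their sign, and 43 had a smaller difference. The median size was 1.66 in place of 1.62. With SH1 1 left out, ASNS was at 4.39 ± 0.18 (adjusted p = 0.000368), IGFBP3 at 2.58 ± 0.17 (adjusted p = 0.00311), C3 at -3.27 ± 0.22 (adjusted p = 0.00311) and GOLGA7B at -5.03 ± 0.27 (adjusted p = 0.001). Among genes named above, FGF5, TAGLN, ANKRD13A, CTSS, PKM, IARS1, C1S, HR, GIPC3, KCND1, ZNF782 and ZNF224 lost the call, as did CD70 described below. In the 6 knockdown libraries alone, 54 of 6025 genes were called (0.896%), and 47 of these are among the 87.

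The 6 genes called only without SH1 1 had no counts in SH1 2 and 3. SLC1A4, a carrier of alanine, serine and cysteine on the ATF4 list, was at 0.33, 0.53 and 0.42 FPKM in control, 0.81, 0 and 0 in SH1 and 2.9, 2.67 and 3.01 in SH3. IQCK was at 0.62, 0.44 and 0.33 FPKM in control, 0.86, 0 and 0 in SH1 and 2.93, 2.33 and 2.06 in SH3. STX2, a syntaxin of membrane fusion, was at 0.76, 1.07 and 0.73 FPKM in control, 2.52, 0 and 0 in SH1 and 4.1, 6.41 and 1.94 in SH3. POLR2B, a subunit of RNA polymerase II, SETDB2-PHF11 and GPR75-ASB3, both read-through genes, made up the rest. In all 6 the SH1 1 library carried counts that its fellow libraries lacked.

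**Figure D5:**
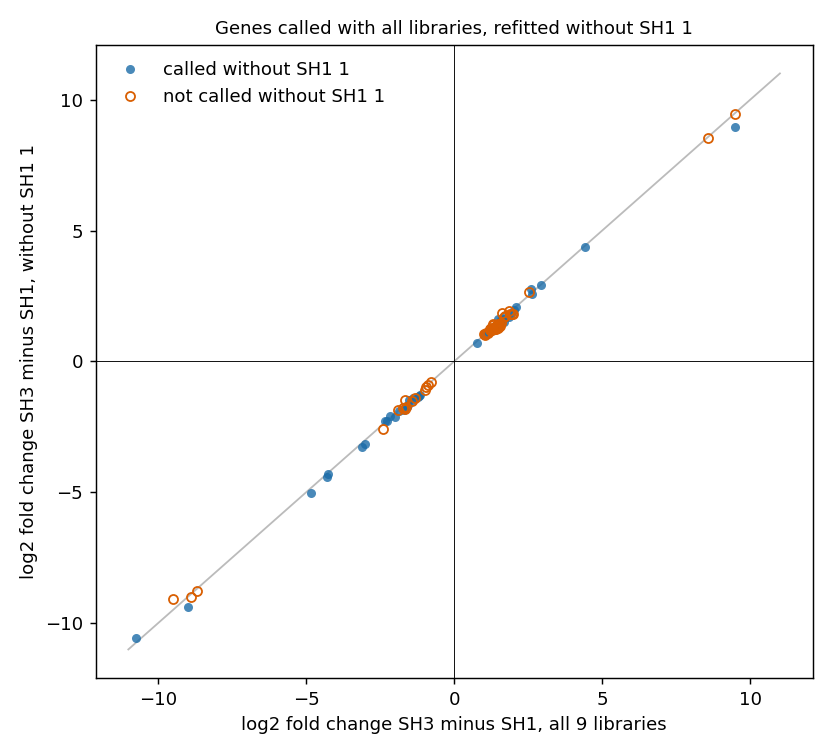
Log2 fold change of SH3 minus SH1 of the 87 called genes with all 9 libraries (horizontal axis) and without SH1 1 (vertical axis), filled where the gene was still called; the line marks equal values. The points follow the line, and 41 of the 87 are filled.

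The markers listed for the cell line were few. Of 20 renal tubule and clear cell carcinoma markers 3 are listed. CD70, a ligand frequent on clear cell carcinoma, was at 10.3, 15.3 and 14.2 FPKM in control, 42.8, 42.4 and 55.4 in SH1 and 14.9, 16.6 and 15.6 in SH3 (log2 fold change -1.41 ± 0.21, adjusted p = 0.0205, reaching 0.118 without 1 library). PAX8, the renal lineage factor, was at 2.26, 3.08 and 1.44 FPKM in control, 6.65, 4.44 and 5.16 in SH1 and 2.88, 9.97 and 3.05 in SH3 (log2 fold change 0.05 ± 0.53, adjusted p = 1). Of other cell types, TIE1 was the 1 endothelial marker of 10 listed (at most 0.97 FPKM in any library), PDGFRB and ACTA2 the 2 fibroblast markers of 10, whose sum was 0.34 to 0.94 in SH1 and 0.3 to 2.18 in SH3, and CD68 the 1 blood cell marker of 12, at 13.2 to 17.8 in SH1 and 12.7 to 14.1 in SH3. The other markers were not analysed here, and the part of other cells in the results was not tested.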

How the data were processed

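Total RNA of 9 Caki-1 libraries was sequenced, 3 per group, each assigned by its own label. Per the file headers, the deposited table gives 4 values per transcript and library. The authors' estimated counts (expected counts, 65.11% not whole) were summed per gene, rounded and tested. The deposited FPKM were summed to describe levels. The deposited TPM show that the table covers 4.2% to 5.18% of a library, so count totals are not library depth. The authors' deposited normalized count, a signal, is the rounded-up count over a library factor, and these factors were an alternative scaling. The submitters' processing notes name the build mm10 and no tool, whereas 6813 of 6819 gene numbers were found in human RefSeq (GRCh38.p14), so the values were read as human. Of the transcripts 10958 are curated, 9036 predicted and 915 further placements of a listed name, and 0 columns were left unmapped. Only 30 of the 87 called genes have all curated transcripts listed.

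Tests used edgeR 4.0.16 in R 4.3.3 (quasi-likelihood, robust, TMM, filterByExpr with a minimum count of 10) fitted to the 9 libraries together with control, SH1 and SH3 means. Adjusted p-values are Benjamini-Hochberg over all genes tested, with a threshold of 0.05. Errors after a log2 fold change are standard errors, its size over the square root of F. The fit was tested on simulated data. Genes were named by rule: the 20 called genes with the smallest p in each direction (mean of at least 1 FPKM in SH1 or SH3, no overlap), 20 genes taken in any case, and up to 4 members of each of 29 lists with the smallest p. IARS1, EDN1, GART, HR, GIPC3, KCND1, ZNF782, ZNF224 and the genes called only without SH1 1 were named after their values were seen. Values of 2 genes that the rule takes are not reported here. The comparison, lists and genes were chosen with earlier results of these data known. Alternatives were DESeq2 1.42.0, limma 3.58.1 on log2 of FPKM plus 1, other scalings and filters, a replicate block, single transcripts, curated transcripts, no further placements, a minimum log2 fold change of 1, and each library left out; the authors' factors and the 6 knockdown libraries without SH1 1 were added after seeing the data.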

Additional observations from a re-analysis of the deposited data

Results flagged for a closer look

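For 31 genes every SH1 library lay on one side and every SH3 library on the other side of all 3 control libraries (TMM-scaled CPM), and SH3 and SH1 themselves differed (edgeR adjusted p below 0.05). Over all 6398 genes tested this order held for 73 (1.14%). Values are log2 fold changes of SH3 minus SH1, and what sets these genes apart was not tested. The order is of ranges, and by the edgeR test against control only ASNS passed for both hairpins. NMRK1, STON1, TMEM98, BMERB1, SYNE3, CLTCL1, CTSS, H2AC6, C1S, FBXO32, SMC4, NEDD4L, KMT2C, GIPC3 and HR passed for neither. In FPKM, SYNE3 in SH1 and FBXO32, H1-2 and KMT2C in SH3 overlapped control.

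Above control in SH3 and below it in SH1 were ASNS (4.42), NMRK1 (2.52), ESM1 (2.1), PFN2 (2.03), STON1 (1.71), SERPINB5 (1.67), PSPH (1.66), SLC16A1 (1.65), LOX (1.58), TMEM98 (1.56), BMERB1 (1.48), SGTB (1.4), SYNE3 (1.38) and CLTCL1 (1.22). ASNS, for nitrogen transfer to asparagine, and PSPH, for serine, act in amino acid supply. SERPINB5, maspin, is a serpin of epithelial cells. NMRK1 phosphorylates nicotinamide riboside on the way to NAD.

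Below control in SH3 and above it in SH1 were, among others, INAVA (-4.27), WSCD1 (-3.02), CXCL6 (-2.35), ABCA1 (-2.26), CD82 (-1.99), CTSS (-1.9), H2AC6 (-1.73), H1-2 (-1.71), C1S (-1.64), FBXO32 (-1.31), SMC4 (-1.16), NEDD4L (-0.876) and KMT2C (-0.765). The histone genes H2AC6 and H1-2 share sequence with other histone genes. SMC4 is a condensin subunit, FBXO32 and NEDD4L act in ubiquitin ligation, and KMT2C is a histone methyltransferase. The listed transcripts of HCFC1, GIPC3 and HR had 0 counts in SH3. At the limit of 3 counts over the group they were at least 216-fold, 91.5-fold and 59.8-fold lower there. For HCFC1 and GIPC3, 0 curated transcripts are listed.

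With 1 library left out, the calls of NMRK1, STON1, SERPINB5, TMEM98, BMERB1, SYNE3, CLTCL1, H2AC6, FBXO32, SMC4, NEDD4L and KMT2C were each lost in 6 to 9 of the 9 fits, with a highest edgeR adjusted p from 0.0704 (SERPINB5) to 0.191 (NEDD4L).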

How the results depend on the processing

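The 87 genes kept their sign in every alternative on gene sums that tested them, except 1 of 80 with curated transcripts alone, ANKRD13A (-1.76). Their number moved more. Leaving out 1 library gave 32 to 92 genes. It was 54 with the 6 knockdown libraries alone, 24 with these without SH1 1, 56 without control 1 and SH1 1, 16 with a minimum log2 fold change of 1 and 17 single transcripts. The DESeq2 Wald test gave 384 of 6819 genes (5.63%), which hold all 87, and 50 list genes in place of 18 of 350 tested by edgeR. Limma-trend gave 137, of which 43.8% were higher in SH3 in place of 57.5%. Other scalings and filters gave 74 to 87, curated transcripts 64 and sums without further placements 78. Of the 40 genes with the smallest p, 11 were called in all 23 alternatives. Signs without a call turned for TAF1B (-1.77 to 0.43 over the fits without 1 library, 0.26 without SH3 1, 0.43 without control 1 and SH1 1, 0.44 with the 6 libraries without SH1 1), TAF1C (-0.096 to 0.79, lowest without SH3 2) and GRB10 (-0.0536 with curated transcripts). The cause was not tested. Whether replicate numbers pair the libraries cannot be told from these values. Same-numbered libraries deviated together with r from -0.065 to 0.076, and other pairs of libraries from different groups with r from -0.056 to 0.095. Of 9 libraries, 5 correlated best with their own number. The same-numbered control 1 and SH1 1 (r = -0.064) were set apart by the selection of the table. With the replicate number as a block 39 genes were called, all among the 87.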
